A study of Mus musculus with 4 samples.

Results

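The cells described here are mouse bone marrow progenitors that carried RNA of interferon-stimulated genes, picked from Lin-Sca1+cKit+ (LSK) cells that had been profiled by droplet single-cell RNA sequencing. A cell was taken as interferon-responding when the summed UMIs (unique molecular identifiers, 1 per captured RNA molecule) of Ifit1, Ifit3, Iigp1, Ifi44, Cxcl10 and Isg15 reached 5 per 10000 of its UMIs. Its Elane had to be below 5 per 10000, with no UMI of Siglech or Ms4a1. Elane, Siglech and Ms4a1 mark neutrophil-primed, plasmacytoid dendritic and mature B cells. The rule found 763 cells. They came from 11812 eligible cells that met the 3 lineage limits, and from 25242 deposited barcodes. The other 11049 eligible cells serve below as the comparison.

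The study compared LSK cells with and without the nucleoporin Nup358, which is encoded by Ranbp2, in 2 control and 2 knockout libraries. Controls were Nup358 fl/fl mice, labelled wild-type. Knockouts were Nup358 fl/fl mice that also carried CreERT2 at the ubiquitously active R26 locus, so deletion was not limited to blood cells. The study states that mice with CreERT2 received tamoxifen on 3 consecutive days, and its first figure describes controls that were treated with tamoxifen too. Mice were 9 to 12 weeks old and numbered 6 per genotype, with the marrows of 3 mice pooled in each library. The controls lacked CreERT2, so the Cre transgene and the loss of Nup358 cannot be told apart. With 2 pools a genotype, p-values measure the spread between these libraries.

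Interferons are secreted proteins that warn cells of infection. Type I interferons bind Ifnar1 and Ifnar2, whose Janus kinases activate a transcription factor complex with Stat2 and Irf9 that binds the interferon-stimulated response element. Interferon gamma signals through Ifngr1 and Ifngr2, and its target genes carry a different site. Both routes raise antiviral proteins, nucleic acid sensors, guanosine triphosphatases that attack intracellular microbes, and antigen presentation. In haematopoietic stem cells, interferon is known to alter cycling and to raise Sca1, the surface protein encoded by Ly6a that the LSK gate itself uses.

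Promoters of some genes that carry the pattern are shown first, because the response element can be read in them. Sequences and start sites are RefSeq's, build GRCm38.p6, and each line runs 5′ to 3′ along the gene's own strand. Capitals mark GAAANNGAAA or its reverse complement with overlapping matches merged, and 15 bases are shown on each side. All matches printed lie before the annotated start. The first 4 genes belong to the selection rule, and the others (an antiviral enzyme, a guanylate-binding protein, an immunity-related GTPase and the virus tether tetherin) do not.

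Ifit1 (chr19:34640770-34640828, + strand): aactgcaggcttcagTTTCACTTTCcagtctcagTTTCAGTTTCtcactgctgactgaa
Ifit3 (chr19:34583358-34583431, + strand): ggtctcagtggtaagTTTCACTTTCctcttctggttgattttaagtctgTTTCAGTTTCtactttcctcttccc
Isg15 (chr4:156200860-156200911, - strand): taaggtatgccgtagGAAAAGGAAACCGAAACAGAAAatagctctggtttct
Cxcl10 (chr5:92349078-92349117, - strand): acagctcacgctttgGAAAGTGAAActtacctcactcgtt
Rsad2 (chr12:26456548-26456587, - strand): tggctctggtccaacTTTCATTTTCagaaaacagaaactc
Gbp2 (chr3:142620589-142620628, + strand): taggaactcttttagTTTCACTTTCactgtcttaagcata
Igtp (chr11:58199507-58199546, + strand): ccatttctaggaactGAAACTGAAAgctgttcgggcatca
Bst2 (chr8:71537572-71537617, - strand): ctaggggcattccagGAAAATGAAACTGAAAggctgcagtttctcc

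In Isg15 the letters were found 3 times in overlapping copies, which end 57 bases before the start. In Ifit1 and Ifit3 they were found 2 times each. The same 300-base windows, reaching from 250 bases before to 50 after the start, held GAAANNGAAA on either strand in 3.99% of 27018 genes, chromosome 18 left out. Of the 112 interferon-stimulated genes outside the rule that were higher in the responding cells (below), 85 had an entry and 40 of these (47.1%) held the letters. The share was 3.17% among genes that were lower and 9.02% among the genes that were higher but belonged to none of the lists. TTCNNNGAA, the palindrome known as the gamma-activated site, was found in 22.4% of the same 85 promoters and in 9.55% of all. The motifs share the letters GAA, so matches of both can overlap. Ifi44, Irf7, Oasl2 and Cxcl9 had no GAAANNGAAA in the window.

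The libraries differed in depth and in how clean they were. They held 60330267 and 25111828 UMIs (control replicates 1 and 2) and 35986936 and 54850344 UMIs (knockout replicates 1 and 2). Of all barcodes, 10936 recurred in another library with at least 3 times as many UMIs there and were left out, among them 5595 of the 6839 of control replicate 2. After this, a minimum of 1000 UMIs and a limit of 10% mitochondrial UMIs, 7797, 1193, 1571 and 3331 cells were left, in the same order. Among the 763 responding cells, 290 barcodes also occurred in another library, where they held less than 3 times as many UMIs. These were 37 of 433, 99 of 111, 97 of 126 and 57 of 93 cells, in the same order, and their part in the results was not tested. Control replicate 1 supplied 433 of the responding cells and control replicate 2 another 111, while the knockout replicates supplied 126 and 93.

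The share of responding cells among eligible cells varied more between libraries of a genotype than between genotypes. It was 6.97% in control replicate 1 (exact 95% interval 6.35 to 7.63), 10.5% in control replicate 2 (8.68 to 12.5), 8.93% in knockout replicate 1 (7.49 to 10.5) and 2.97% in knockout replicate 2 (2.41 to 3.63). The intervals cover counting error only. Knockout replicate 2 was lowest, and the other knockout library lay between the controls. Control libraries averaged 8.72% ± 2.47 (SD, n = 2) and knockout libraries 5.95% ± 4.21 (SD, n = 2). The difference of -2.76 percentage points had p = 0.667 in a two-sided exact permutation test, which with 2 libraries against 2 cannot go below 1 in 3. Without knockout replicate 2 the difference was 0.21 percentage points.

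**Figure D1:**
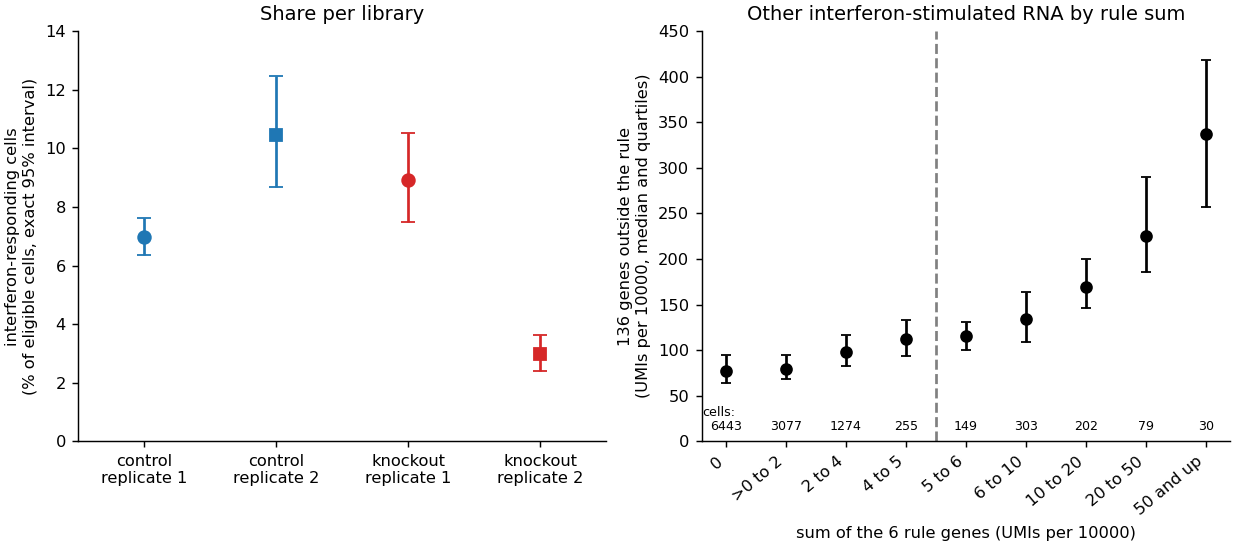
Left, share of interferon-responding cells in percent of eligible cells for each library, with exact 95% binomial intervals. Right, median and quartiles of the summed UMIs per 10000 of 136 interferon-stimulated genes outside the rule, by the sum of the 6 rule genes, with the number of cells in each bin; the dashed line is the selection limit, and the medians climb from 77.1 in cells without rule UMIs to 337 in cells at 50 or more, with no step at the limit.

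The limit cut through a continuous range. Eligible cells with a rule sum of 4 to 5 per 10000 (255 cells) and those at 5 to 6 (149 cells) lay next to each other in 136 other interferon-stimulated genes, with medians of 112 and 115 UMIs per 10000. The median in the 6443 cells with no rule UMI was 77.1, and in the 202 cells at 10 to 20 it was 169. The 30 cells at 50 or more had 337, and they made up 2.77%, 11.7%, 2.38% and 2.15% of the responding cells (12, 13, 3 and 2 cells; control replicates 1 and 2, knockout replicates 1 and 2), so that control replicate 2 stood apart. The responding cells are therefore the upper end of a range and are given here as a class cut from a score.

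Responding cells were shallower than the others in every library. Their median UMI counts were 4057, 10298, 13102 and 9434 (control replicates 1 and 2, knockout replicates 1 and 2), against 5419.5, 12856, 19070 and 15019. At 2000 UMIs or fewer a single rule UMI met the limit, and 36 responding cells had only 1, of which 32 were in control replicate 1. Of the 763 cells, 664 carried at least 2 of the 6 rule genes, 286 at least 4, and 65 all 6. Median mitochondrial shares were 2.89% to 3.59% across libraries in responding cells and 2.82% to 3.54% in the others.

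The 6 genes of the rule are given as a description, since they chose the cells. Levels are UMIs per 1000000 (CPM) of a library's summed cells, in the order control replicates 1 and 2, knockout replicates 1 and 2. Isg15, a ubiquitin-like modifier, was at 270, 529, 331 and 313 CPM in responding cells and at 17.2, 29.8, 43.0 and 23.8 in the others. Ifi44, whose product restrains viral replication, was at 349, 397, 293 and 211 CPM, against 29.1, 35.0, 46.6 and 21.3. Iigp1, a GTPase that disrupts the vacuoles of intracellular parasites, was at 225, 265, 169 and 177 CPM, against 8.67, 10.6, 13.6 and 8.54. Among responding cells all 3 were highest in control replicate 2, and among the others in knockout replicate 1.

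Ifit1 and Ifit3 bind foreign RNA or its partners and lie near each other on chromosome 19. Ifit1 was at 147, 269, 149 and 169 CPM in responding cells, against 4.70, 8.04, 9.09 and 4.30 in the others. Ifit3 was at 77.2, 184, 69.3 and 44.0 CPM, against 1.06, 0.292, 2.01 and 0.471. Thinned to 1000 UMIs a cell, which compares equal depths, 10.4%, 20.7%, 15.9% and 9.68% of responding cells had an Ifit1 UMI and 0.398%, 0.947%, 1.09% and 0.297% of the others did. At full depth the shares were 38.3%, 68.5%, 66.7% and 52.7% against 2.85%, 9.58%, 13.8% and 6.13%. The rule set this gap.

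Cxcl10, a chemokine that draws T cells through Cxcr3, was unevenly spread over the cells. Its level was 289, 485, 98.2 and 181 CPM in responding cells. Only 165 of the 763 cells (21.6%) had any Cxcl10 UMI, and 21 cells with more than 20 UMIs held 978 of the 1654 Cxcl10 UMIs (59.1%), 1 of them with 131. Those 21 cells were 6, 10, 3 and 2 in the 4 libraries. In control replicates 1 and 2, cells with Cxcl10 had median levels of the 136 other interferon-stimulated genes of 200 and 277 per 10000, against 139 and 148 in responding cells without it. In knockout replicates 1 and 2 the medians were 149 and 148 with Cxcl10 and 134 and 135 without. Cells with Cxcl10 were the deeper ones in all 4 libraries, with median UMI counts of 6959.5, 11533, 17142 and 11421 against 3707, 10070.5, 12464 and 8781.

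Genes outside the rule were compared between responding and other eligible cells over 8 sums of cells, 1 of each kind from each library, with the library in the model. In edgeR (quasi-likelihood test, Benjamini-Hochberg adjusted p under 0.05), 657 of 11550 genes were higher in responding cells (5.69%) and 652 were lower (5.65%), 11.3% in all. Of 133 tested genes in 6 lists of interferon-stimulated genes, 112 were higher and none lower, with a median log2 fold change of 1.49 against -0.0028 over all genes tested. At an unadjusted p under 0.05, 2839 of the 11550 genes passed (24.6%). Of the listed genes, 119 were higher in all 4 libraries, which 16.6% of all tested genes were. These lists and the rule genes belong to the same response, so this count describes the cells and is not independent of how they were chosen. Without control replicate 1, which supplied most of the cells, 106 of 133 were higher and 1 was lower. Without knockout replicate 1 or 2, 435 and 411 of all genes were higher and 273 and 299 lower, and without control replicate 2 the lower genes numbered 408.

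**Figure D2:**
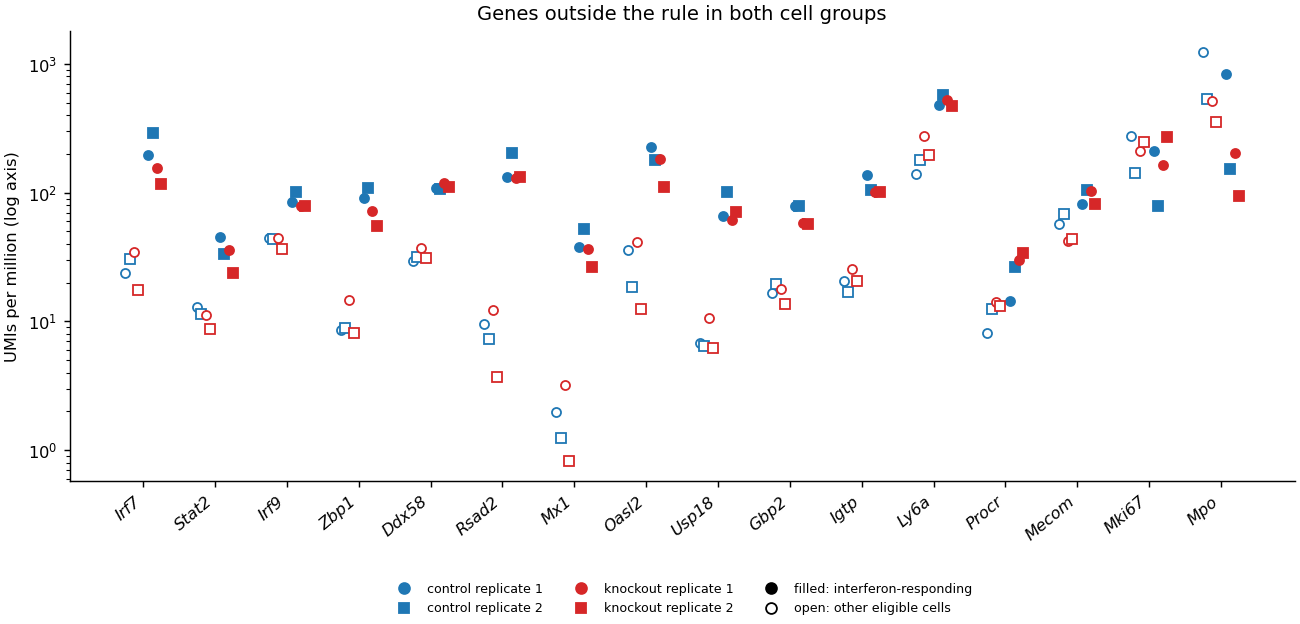
Level of 16 genes outside the rule in each library in UMIs per 1000000 on a log axis; blue is control, red knockout, circles replicate 1, squares replicate 2, filled symbols interferon-responding cells and open symbols other eligible cells. From Irf7 to Ly6a the filled symbols all lie above the open ones; for Mki67 they overlap, and for Mpo each library's filled symbol lies below its open one.

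Most transcription factor genes of the pathway were higher. Of 12 STAT and IRF genes and partners tested, 9 were higher in responding cells, with a median log2 fold change of 1.03. Irf7, which amplifies type I interferon production, was at 197, 288, 155 and 117 CPM against 23.7, 30.6, 34.4 and 17.7. The 2 sets of levels did not overlap, and the log2 fold change was 2.76 ± 0.12 (SE, 4 libraries, edgeR adjusted p = 1.14e-12). Stat2 and Irf9, partners in the complex that binds the response element, had log2 fold changes of 1.62 ± 0.13 and 0.96 ± 0.09 (SE). Stat3, Irf3 and Irf5 did not pass, with log2 fold changes of 0.23, 0.09 and 0.73.

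The receptors upstream showed little of this. Of 8 receptor and Janus kinase genes tested, only Jak2 passed, with a log2 fold change of 0.58 ± 0.12 (SE). Ifnar1 had 0.20 ± 0.13 and Ifnar2 0.00 ± 0.09 (SE), and Ifngr1 0.04. No interferon gene had enough UMIs to be tested in this comparison of cell groups. In the responding cells 12 of 13 listed interferon genes had no UMI at all, Ifnb1 and the listed interferon alpha genes among them, and Ifng was at 0, 2.40, 2.13 and 0 CPM.

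Sensors of foreign nucleic acid were higher in 12 of 18 tested genes, with a median log2 fold change of 1.76. Zbp1, which binds Z-form nucleic acid and can start necroptosis, was at 90.2, 108, 71.5 and 55.0 CPM against 8.56, 8.91, 14.7 and 8.11, a log2 fold change of 2.96 ± 0.16 (SE). Ddx58 and Ifih1, which encode the cytosolic RNA sensors RIG-I and MDA5, had log2 fold changes of 1.74 ± 0.08 and 1.77 ± 0.11 (SE). Ifi204, a DNA sensor, had 4.38 ± 0.28 (SE) from low levels in the other cells (0.77 to 1.80 CPM). The adaptors Mavs, Tmem173 (STING) and Myd88 did not pass, with log2 fold changes of -0.04, 0.05 and 0.25.

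Antiviral effectors were higher in 24 of 26 tested genes, with a median log2 fold change of 1.58. Rsad2 (viperin, which makes a chain-terminating nucleotide) was at 134, 204, 131 and 132 CPM against 9.46, 7.31, 12.2 and 3.69, a log2 fold change of 4.14 ± 0.18 (SE). Mx1, a GTPase that traps viral nucleocapsids, was at 38.1, 52.1, 36.8 and 26.6 CPM against 1.98, 1.24, 3.23 and 0.825, a log2 fold change of 4.33 ± 0.24 (SE). Both sets were apart in every library. Ifitm3, which blocks viral entry, was already abundant in the other cells (1078, 1119, 1368 and 1155 CPM) and was at 2343, 2440.2, 2458 and 2113 CPM in the responding cells, a log2 fold change of 0.95 ± 0.05 (SE). Its neighbour Ifitm2 had 0.00 (edgeR adjusted p = 0.998).

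Negative regulators were among the higher genes. Of 10 genes of ISG15 conjugation and feedback, 8 were higher. Usp18, which removes Isg15 from proteins and blocks Ifnar2 signalling, was at 66.3, 102, 60.8 and 70.5 CPM against 6.77, 6.43, 10.6 and 6.19, a log2 fold change of 3.23 ± 0.16 (SE). Herc6, the mouse ligase of Isg15, had 2.04 ± 0.09 (SE), and Socs1, an inhibitor of Janus kinases, had 1.65. Socs3 did not pass (-0.06).

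All 16 interferon-inducible GTPase genes tested were higher, with a median log2 fold change of 2.32. Igtp was at 138, 104, 102 and 102 CPM against 20.7, 17.0, 25.5 and 20.6, a log2 fold change of 2.37 ± 0.11 (SE). Gbp2 and Irgm1 had 1.98 ± 0.11 and 1.83 ± 0.13 (SE). Among 51 further interferon-stimulated genes tested, 43 were higher, among them Rtp4 (2.14 ± 0.11), Xaf1 (1.78 ± 0.08) and Slfn5 (3.42 ± 0.20, SE). Several of these genes have near copies (Ifit3 and Ifit3b, Apol9a and Apol9b, Tgtp1 and Tgtp2, the Oas1, Gbp, Slfn and Ifi200 families), and reads of a shared stretch cannot be assigned to 1 copy, so values of single copies are uncertain.

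**Figure D3:**
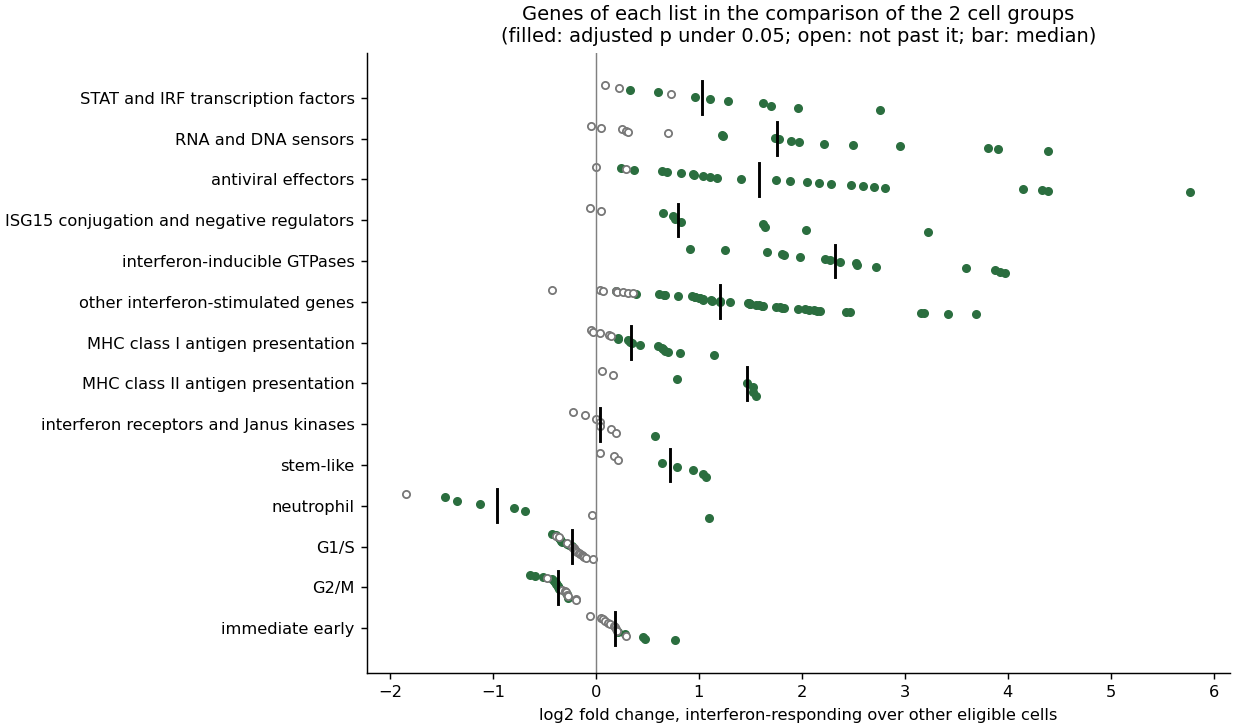
Log2 fold change of each tested gene between interferon-responding and other eligible cells, by gene list; each point is a gene, filled where the edgeR adjusted p was under 0.05, and the bar is the list's median. The 6 interferon-stimulated lists have medians from 0.80 to 2.32, while G1/S and G2/M genes lie below 0.

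Antigen presentation genes of both classes were among those higher. Of 18 MHC class I genes tested, 13 were higher, with a median log2 fold change of 0.35. B2m, the light chain shared by all class I molecules, was at 856, 1406, 1238 and 1121 CPM against 668, 1074, 934 and 827, a log2 fold change of 0.36 ± 0.04 (SE). Nlrc5, the class I transactivator, had 1.15 ± 0.12 (SE). Of 7 class II genes, 5 were higher, with a median of 1.47. Cd74, the class II invariant chain, was at 236, 91.3, 466 and 358 CPM against 63.9, 55.8, 127 and 128, but 1 cell of knockout replicate 1 held 503 of its 874 UMIs there and 1 cell of knockout replicate 2 held 186 of 391.

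The genes of the gate, and some other surface markers of stem and progenitor cells, were set against the label. Kit, which encodes cKit, was at 115, 135, 103 and 91.6 CPM in responding cells and 109, 109, 90.7 and 73.5 in the others, and 40.6%, 72.1%, 69.0% and 55.9% of responding cells had a Kit UMI, against 45.5%, 73.9%, 69.9% and 59.6%. Cd34 fell by 0.21 ± 0.06 (SE) on the log2 scale. Ly6a, which encodes Sca1, was at 482, 576, 523 and 472 CPM against 141, 181, 274 and 197, a log2 fold change of 1.37 ± 0.10 (SE, edgeR adjusted p = 1.02e-09). The sort selected on Sca1 protein, and whether this altered which cells were captured was not tested. Cd48, absent from the surface of stem cells, fell by 0.57 ± 0.08 (SE), and Slamf1 and Flt3 did not pass (0.04 and -0.11). Thinned to 1000 UMIs a cell, 12.9%, 12.6%, 13.5% and 5.38% of responding cells had a Kit UMI, against 11.0%, 11.8%, 7.39% and 7.65% of the others. The share in a cell type that lacks Kit was not computed, so these shares are not read as expression.

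Of 8 stem cell genes, 5 were higher in the responding cells. Procr, a surface receptor of long-term stem cells, was at 14.3, 26.4, 29.9 and 33.9 CPM against 8.13, 12.5, 14.1 and 13.2, a log2 fold change of 1.04 ± 0.14 (SE). Mecom, a transcription factor needed for stem cell maintenance, was at 81.5, 105, 103 and 81.5 CPM against 57.1, 68.5, 42.2 and 43.4, a log2 fold change of 0.79 ± 0.10 (SE). Both were higher in 4 of 4 libraries. Hlf, Mllt3 and Fgd5 had 0.64 ± 0.08, 0.94 ± 0.12 and 1.07 ± 0.23 (SE). Meis1, Hoxa9 and Slamf1 did not pass (0.21, 0.18 and 0.04). Without cells that lacked a Kit UMI, 4 of the 8 were higher.

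Most granule genes of neutrophil priming that were tested were lower, although cells high in Elane had been left out of both groups. Of 8 neutrophil genes tested, 5 were lower and 1 higher. Mpo (myeloperoxidase) was at 834, 153, 203 and 93.4 CPM against 1245, 538, 512 and 356, and fell by 1.35 ± 0.13 (SE) on the log2 scale. Ctsg and Prtn3, which encode granule proteases, fell by 1.46 ± 0.12 and 0.80 ± 0.07 (SE). The 1 higher gene was S100a8 (1.09 ± 0.30), and there a single cell per library held most of the UMIs: 268 of 309, 888 of 901, 350 of 422 and 198 of 198. Of genes outside the lists, Camp and Ngp, secondary granule genes, fell by 2.10 ± 0.22 and 1.53 ± 0.16 (SE), and F13a1 by 1.22 ± 0.17 (SE). Of 9 monocyte and dendritic markers, 4 were higher (Cd74 by 1.53, Ly6c2 by 0.58, Klf4 by 0.56 and Irf8 by 0.50 on the log2 scale) and 1 was lower, Ccr2, a receptor of monocyte precursors, which fell by 1.74 ± 0.15 (SE).

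Some cell cycle genes were lower. Of 24 G2/M genes, 16 were lower and none higher (median log2 fold change -0.37), and of 25 G1/S genes 9 were lower (median -0.23). Aurkb, a mitotic kinase, fell by 0.64 ± 0.11 (SE). Mki67 was at 211, 78.5, 163 and 270 CPM against 274, 143, 210 and 248, so that knockout replicate 2 went against the other 3 libraries, and its log2 fold change was -0.37 ± 0.09 (SE). In cells with at least 5000 UMIs 7 of 24 G2/M genes were lower, and with every cell thinned to 1000 UMIs 1 of 23 was (median -0.53). Of the G1/S genes 1 of 25 and 1 of 24 were lower under these settings, and with 1 library left out 2 to 10 of 25 were, the fewest without knockout replicate 1 (5 without control replicate 2). Of the G2/M genes 10 to 15 of 24 were lower with 1 library left out, 11 without control replicate 1 and 10 without control replicate 2.

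Of 16 immediate early genes, which answer stress and growth signals within minutes, 5 were higher in responding cells (Klf2 by 0.77, Atf3 by 0.48, Klf6 by 0.46, Junb by 0.28 and Fos by 0.22). Of 12 inflammatory and NF-kB genes, Cxcl2, Relb, Ccl4, Nfkbiz and Nfkbia passed, with log2 fold changes from 0.34 to 1.17.

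Several genes outside the lists also rose. The 10 largest rises among named genes with the same direction in all 4 libraries were Apol9a, Pydc3, AI607873, Apol9b, Pydc4, Serpina3f, Hoxb8, Spon1, Il27 and Slc15a3, with log2 fold changes from 2.53 to 4.78. Pydc3 and Pydc4 encode pyrin domain proteins of the same cluster as Ifi204. Pydc4 was at 26.0, 65.7, 20.3 and 15.6 CPM against 1.47, 3.14, 2.08 and 0.90. Serpina3f, a protease inhibitor, was at 42.0 and 49.7 CPM in control and 20.1 CPM or more in knockout libraries, against 1.90 to 4.41 in the other cells. Il27 and Slc15a3, a cytokine subunit and a lysosomal transporter, were at 4.27 to 10.4 and 3.03 to 5.50 CPM in responding cells. The largest falls beside Camp, Ngp and F13a1 were of low genes (Hist1h3g, Slc12a4, Slc36a3os, Hist1h2an, Evpl, Lef1 and Chdh), with log2 fold changes from -2.67 to -1.42.

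Markers of other blood cells were looked for in the responding cells. Summed haemoglobin UMIs were 22076, of which 6 cells with over 1% haemoglobin (2 and 4 in the control libraries) supplied 21173. The 8 erythroid markers summed to 772, 5668, 266 and 313 CPM against 235, 509, 263 and 355, led by Hbb-bt, and 3 of 8 were higher (Hba-a1 and Hbb-bt among them). Without the haemoglobin-rich cells none of 6 tested was higher and 1 was lower. The 6 megakaryocyte markers summed to 153, 169, 53.3 and 167 CPM against 135, 77.8, 68.2 and 103, and 1 of 5 tested, Pf4, was higher (0.72 ± 0.21, SE, log2). The 9 monocyte and dendritic markers summed to 1091, 762, 1267 and 1170.4 CPM against 960.2, 712, 753 and 707, higher in responding cells of all 4 libraries, of which Cst3 made up 55.6%. The 6 B cell markers summed to 38.1, 34.4, 77.3 and 217 CPM against 47.4, 52.5, 69.7 and 289, led by Cd79b. The 6 T and NK cell markers summed to 166, 158, 140 and 164 CPM against 200, 153, 214 and 243, of which Nkg7 made up 93.1%. The 6 macrophage markers summed to 5.33 CPM or less in every library. Prss34, a basophil protease, came from 1 cell of knockout replicate 1, which held all 181 UMIs. Of the 7 plasmacytoid dendritic markers counted beside Siglech, Bst2 made up 68.8%, and Ly6d fell by 2.06 (log2). Without the haemoglobin-rich cells 113 of 133 interferon-stimulated genes were higher, the difference in share was -2.59 percentage points, and the genotype comparisons described next gave 19 calls in responding cells and 16 for the interaction. The part of the other markers in the results was not tested.

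The second question was whether responding cells of the knockout differed from those of the control. Ranbp2 itself (chr10:58446920-58494356, GRCm38) was at 157 and 103 CPM in control and 154 and 150 CPM in knockout responding cells. The counts come from the 3′ ends of transcripts, outside the deleted exon, so this level does not test the labels. Within responding cells 2 of 9485 genes were higher (0.0211%) and 15 lower (0.158%) in the knockout by edgeR with Benjamini-Hochberg adjustment, and 944 (9.95%) passed at an unadjusted p under 0.05. DESeq2 called 36. With cells of at least 5000 UMIs edgeR called none, 621 genes passing at an unadjusted p under 0.05. The count depended on the libraries kept: leaving out any 1 of them, which leaves 1 library in a genotype, gave more calls.

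Interferon-stimulated genes made up 1 of the 17. Of 126 tested, none was higher and only Ifitm6 was lower, and the log2 fold changes were negative for 96 and positive for 30, with a median of -0.36 against -0.00012 over all genes tested. Both knockout libraries lay below both controls in 56 of the 126 and above them in 15, against 17.6% and 26% of all genes tested. Irf7 was at 197 and 288 CPM in control and 155 and 117 CPM in knockout responding cells. The knockout libraries were the lower ones, yet Irf7 did not pass (log2 fold change -0.91). Without control replicate 2 the median over 130 interferon-stimulated genes was -0.12, and without control replicate 1 it was -0.51 over 127. Calls were 3 higher and 13 lower without control replicate 2, 3 and 47 without control replicate 1, 0 and 4 without knockout replicate 2, and none without knockout replicate 1.

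Some immediate early genes were lower in responding cells of the knockout. All 16 had negative log2 fold changes, with a median of -1.40, and 5 passed (3 without knockout replicate 1, 7 without knockout replicate 2, 16 and 13 without control replicate 1 or 2). With at least 2 rule genes 2 passed, as at a sum of 10 per 10000, and in cells of at least 5000 UMIs none did, with medians of -1.36, -1.51 and -1.24. Egr1 was at 342 and 439 CPM in control and 76.3 and 70.5 CPM in knockout responding cells, a log2 fold change of -2.50 ± 0.24 (SE, 2 libraries against 2, edgeR adjusted p = 0.0111). Jun was at 883 and 951 against 285 and 230 CPM, a log2 fold change of -1.91 ± 0.22 (SE). Jund, Klf6 and Atf3 also fell, by 1.42, 1.38 and 2.02 (log2). The other eligible cells had much the same values for these genes, with log2 fold changes of -2.52 ± 0.19 for Egr1 and -1.85 ± 0.17 for Jun (SE), and the test of the difference between the 2 cell groups gave edgeR adjusted p = 0.953 and 0.992. Neutrophil markers summed to 2391 and 1396 CPM in control and 942 and 540 CPM in knockout responding cells. All 8 tested had negative log2 fold changes (median -1.34) and none passed. Without control replicate 1 their median was -0.22, with 3 of 7 lower and 1 higher, without control replicate 2 it was -1.74, with 7 of 8 lower and 1 higher, and without knockout replicate 2 1 was lower. The 6 lymphoid-primed genes had a median of -0.91, 5 of them negative, and none passed. Without control replicate 1 that median was -1.42, with 5 of 6 passing, without control replicate 2 it was -0.17 over 5 genes, and without knockout replicate 1 it was -0.52. The part of either list in the immediate early values was not tested.

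Ccnd1, a D-type cyclin that carries cells into the cycle, was at 8.24 and 12.8 CPM in control and 46.9 and 68.7 CPM in knockout responding cells, a log2 fold change of 2.42 ± 0.34 (SE). In the other eligible cells it was at 14.2 and 15.6 against 47.5 and 49.5 CPM. The chemokine genes Ccl3 and Ccl4 were at 99.7 and 355 against 12.3 and 14.7 CPM and at 145 and 380 against 28.8 and 33.9 CPM, and fell by 4.19 ± 0.61 and 3.17 ± 0.45 (SE, log2). Rgs1, Skil, Ypel3 and Greb1 also fell, by 1.87, 1.77, 1.54 and 3.31 (log2), and Blvrb by 1.65. For these genes control and knockout libraries did not overlap in either cell group. Across the alternatives the value of Blvrb ran from -1.90 to -0.77, and its call was lost in 7 of 17. That of Greb1 ran from -4.18 to -2.21, with the call lost in 5.

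Other calls rested on few cells. Cd79a, of the B cell receptor complex, was higher in the knockout (1.73 and 0 against 20.8 and 56.8 CPM), from 3 cells in knockout replicate 1 and 6 in knockout replicate 2. Hbb-bs was lower, and 3 cells of control replicate 1 and 6 of control replicate 2 had supplied its 1516 and 10338 UMIs. The 79 Lcn2 UMIs of control replicate 2 were in 1 cell, and 1 cell held 20 of the 23 Ifitm6 UMIs there. G2/M genes had positive log2 fold changes in 24 of 24 (median 0.57), but none passed. Without control replicate 1, whose removal leaves 1 control library that is assumed to vary like the knockout ones, 21 of 24 did (median 1.27). Without control replicate 2 the median was 0.27, with 21 of 24 positive and 1 passing, and in cells of at least 5000 UMIs it was 0.33.

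**Figure D4:**
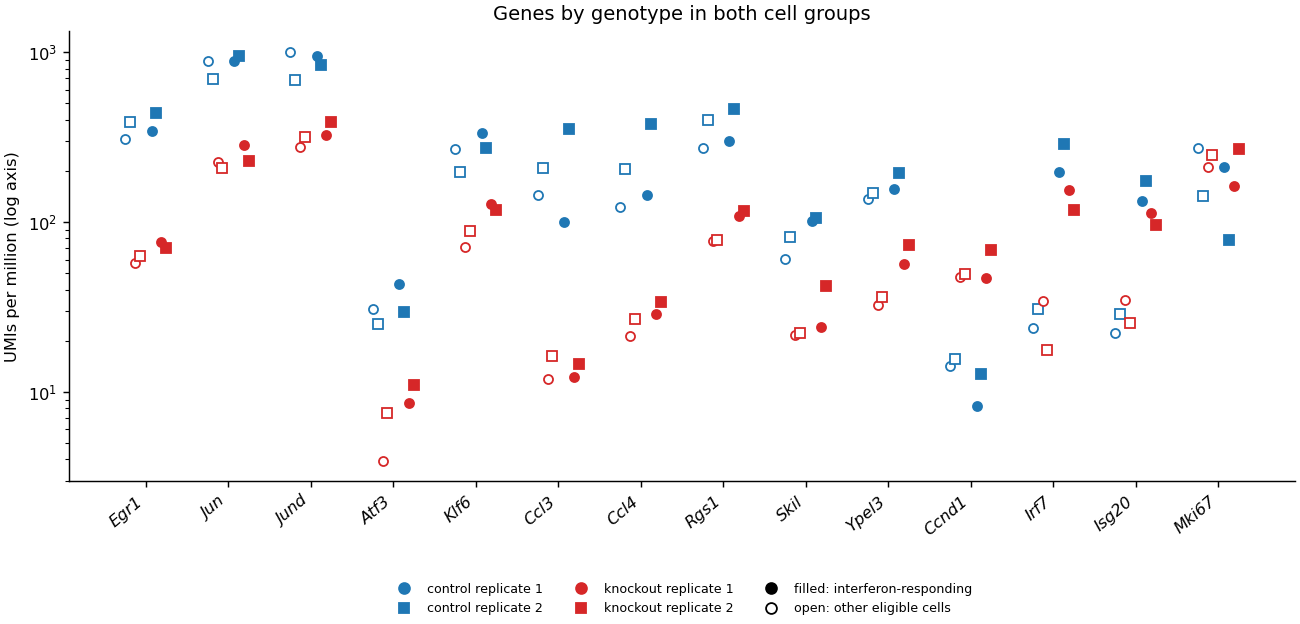
Level of 14 genes in each library in UMIs per 1000000 on a log axis; blue is control, red knockout, circles replicate 1, squares replicate 2, filled symbols interferon-responding cells and open symbols other eligible cells. From Egr1 to Ypel3 both knockout libraries lie below both control libraries in both cell groups, and Ccnd1 lies above.

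In the other eligible cells the same contrast gave 110 of 13395 genes higher (0.821%) and 267 lower (1.99%), 2.81% in all. Fewer genes passed in responding cells, where each library had 93 to 433 cells against 950 to 5780, and the 377 calls of the other cells became 3286 and 2211 without control replicate 1 or 2 and 249 and 49 without knockout replicate 1 or 2. Whether a genotype difference differed between the 2 cell groups was tested by an interaction term over the 8 sums. Of 12161 genes, 5 had a larger excess in responding over other cells in the knockout (0.0411%) and 14 a smaller one (0.115%), by edgeR with Benjamini-Hochberg adjustment, and 6.81% passed at an unadjusted p under 0.05. Without control replicate 1 or 2 the total of 19 became 131 and 103, and without knockout replicate 1 or 2 it became 22 and 47.

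Interferon-stimulated genes were among the 14. Irf7, Zbp1, Isg20, Ifi47, Bst2 and Ifitm3 had a smaller excess in the knockout, and so did Ly6a. A smaller excess is not always a lower level in responding cells. For Ly6a and Ifitm3 the levels given above overlapped between control and knockout responding cells. In the other eligible cells both knockout libraries lay above both controls for these genes. The chemokine gene Cxcl9 was called too, on 35 UMIs in responding cells of control replicate 1. Control replicate 2 had 1 UMI and knockout replicates 1 and 2 had 6 and 3, so control replicate 2 was the lowest. The excess of Irf7, as the log2 ratio of responding to other cells with 1 CPM added to both, was 3.01 and 3.19 for the controls, against 2.14 and 2.66 for the knockouts, and the interaction was -0.80 ± 0.16 (SE, edgeR adjusted p = 0.0399). That of Isg20, an RNA exonuclease, was 2.52 and 2.56 against 1.66 and 1.89, with an interaction of -0.86 ± 0.15 (SE, edgeR adjusted p = 0.0118). Ly6a had 1.77 and 1.67 against 0.93 and 1.26, with an interaction of -0.69 ± 0.11 (SE). For each of these the control libraries lay close together and above both knockout libraries. The genes were named because the test called them, so this separation is only a description. The share of all tested genes with such a separation was not computed.

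Over the 134 interferon-stimulated genes tested, the interaction was negative for 104 and positive for 30, with a median of -0.25 against 0.02 over all genes. This count too is not independent of the rule, whose median sum was lower in responding cells of both knockout libraries. The part of that difference was not tested. The 6 lower calls were 6 with at least 2 rule genes, without haemoglobin-rich cells, at most 5% mitochondrial UMIs and under another scaling, and 16, 12 and 13 without control replicate 1, control replicate 2 or knockout replicate 2 (medians -0.32, -0.26 and -0.36). They were 0 of 134 without knockout replicate 1, with 1 gene of larger excess (median -0.08), 0 of 132 without cells lacking a Kit UMI (median -0.19) and 0 without Isg15 in the sum (median -0.23). Without the 30 cells at 50 or more per 10000 Isg20 and Ifi47 passed (median -0.18), and 1 gene did at 5000 UMIs, at a sum of 10 and by DESeq2.

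**Figure D5:**
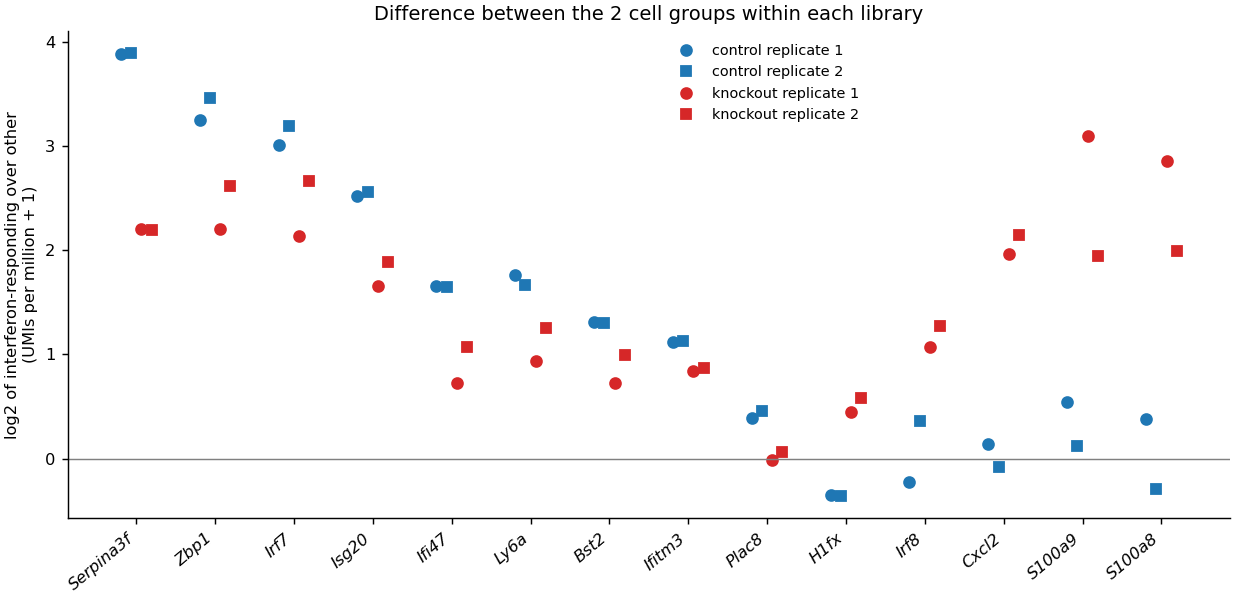
Log2 ratio of interferon-responding over other eligible cells in each library, with 1 UMI per 1000000 added to both, for 14 genes whose genotype difference differed between the cell groups; blue is control, red knockout, circles replicate 1, squares replicate 2. From Serpina3f to Plac8 both knockout libraries lie below both control libraries, and from H1fx to S100a8 above.

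The 5 genes with a larger excess in the knockout were S100a8, S100a9, Cxcl2, Irf8 and H1fx, and for all but H1fx a few cells held most of the knockout UMIs. S100a8 and S100a9 encode the subunits of calprotectin. Their knockout UMIs came from 3 and 1 cells (S100a8) and 4 and 1 cells (S100a9). Those of Cxcl2, a neutrophil chemokine, came from 6 and 9 cells. For Irf8, a transcription factor of monocyte and dendritic precursors that interferon gamma also raises, 1 cell held 101 of 157 UMIs in knockout replicate 1 and 1 cell 51 of 92 in knockout replicate 2. H1fx, a linker histone gene, came from 64 and 44 cells, and its ratios were -0.35 and -0.36 in control and 0.45 and 0.59 in knockout libraries. By contrast, Irf7 UMIs came from 210, 87, 97 and 48 responding cells, with at most 16 in any 1 of them.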

How the data were processed

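The authors aligned reads of the 3′ gene expression libraries to the mouse genome (mm10) with Cell Ranger 3.1 and deposited raw UMI counts of 27998 genes per barcode; the aligner's other settings are not given in the sources used here. Cells were kept at 1000 UMIs or more, at most 10% mitochondrial UMIs, and unless the same barcode had at least 3 times the UMIs in another library. No doublet caller was run. Members and gene lists were chosen with earlier results of these data known. Counts were summed per library and cell group, filtered with filterByExpr, scaled by TMM and tested with edgeR 4.0.16 (R 4.3.3, quasi-likelihood, two-sided, Benjamini-Hochberg, threshold 0.05). The 9 genes of the selection rule were not tested between cell groups. CPM are UMIs per 1000000 of a sum, without TMM, and carry no error of their own, since each is 1 value per library. Libraries were grouped by GEO's labels, 2 a genotype. Named were Ranbp2, the rule's genes, genes of 29 lists and, per comparison, the 10 largest rises and falls outside them; 2 listed genes are not reported here by name. DESeq2 1.42.0, other limits on cells, other scaling, no filter, thinning, a replicate block and leaving out each library were the alternatives. Scripts were tested on simulated data. Python 3.11.15, pandas 2.3.3, numpy 2.4.6, scipy 1.17.1 and matplotlib 3.10.9 were used for the rest. Promoters were matched by symbol. Each library held 25111828 to 60330267 UMIs and each sum of responding cells 1091902 to 2306982, where 1 UMI is under 1 CPM.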

Additional observations from a re-analysis of the deposited data

Results flagged for a closer look

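The genotype difference of 19 genes differed between responding and other eligible cells by the interaction test (edgeR, Benjamini-Hochberg, 4 libraries), given as log2 values where a negative value is a smaller excess in the knockout. Among interferon-stimulated genes the values were -1.07 for Zbp1, -0.86 for Isg20, -0.83 for Ifi47, -0.80 for Irf7, -0.51 for Bst2 and -0.32 for Ifitm3. Serpina3f had -2.02, Ly6a -0.69 and Plac8 -0.45. Of 16 alternatives, the call was lost in 8 for Ifitm3 and in 7 each for Irf7, Zbp1 and Bst2. It was lost in 5 each for Isg20 and Ly6a, 4 each for Ifi47 and Plac8 and 2 for Serpina3f. For these 9 genes both knockout libraries had lower ratios than both control libraries. The test that picked them used the same libraries, so this separation is a description and no further support. For Ly6a and Ifitm3, control and knockout responding cells overlapped in level.

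Cxcl9 had -4.21, with 35 UMIs in 7 responding cells of control replicate 1. Control replicate 2 held 1 UMI, fewer than the 6 and 3 of knockout replicates 1 and 2. Across the alternatives its value ran from -4.85 to -1.94, and the call was lost in 8 of 16. The erythroid genes had -3.63 (Klf1), -3.36 (Hbb-bs), -2.71 (Hbb-bt) and -0.84 (Blvrb), and 6 haemoglobin-rich cells of the control libraries held most of the haemoglobin UMIs. The value of Hbb-bs turned to 1.20 without those cells, and without Isg15 in the sum those of Hbb-bs, Hbb-bt and Blvrb turned to 9.76, 1.36 and 0.097. Without cells lacking a Kit UMI Hbb-bs and Blvrb turned to 1.27 and 0.080. Blvrb UMIs came from 101 and 35 responding cells of the control libraries. Klf1 kept its direction in all 16 alternatives but lost the call in 9. Larger excesses in the knockout were 2.43 for S100a8, 2.22 for S100a9, 2.13 for Cxcl2, 1.11 for Irf8 and 0.82 for H1fx. In knockout replicate 2 all 198 S100a8 UMIs and all 207 S100a9 UMIs of responding cells were in single cells.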

How the results depend on the processing

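The difference in share of responding cells was -2.59 to -1.23 percentage points under the other limits on cells and the thinned selections, and -5.74 to 0.21 when 1 library was left out, reversing without knockout replicate 2. Genes higher and lower in responding cells numbered 418 and 235 at a minimum of 5000 UMIs, 418 and 210 at a sum of at least 10 per 10000, 422 and 328 without cells lacking a Kit UMI, 138 and 71 with each cell thinned to 1000 UMIs and 436 and 418 by DESeq2; 426 were lower with at least 2 rule genes. Leaving out 1 library gave 411 to 578 higher and 273 to 739 lower. Genotype calls in responding cells, 17 in all, became 0 at 5000 UMIs, 9 at a sum of 10, 3 with at least 2 rule genes, 72 with copied barcodes kept, 37 at most 5% mitochondrial UMIs, 45 without cells at 50 or more per 10000, 36 by DESeq2, 298 with no filter on low counts, and 18 to 1202 with 1 library left out. In the other eligible cells the 377 calls became 19 at 5000 UMIs, 590 with copied barcodes kept, 956 by DESeq2, 2180 with no filter, and 49 to 3286 with 1 library left out. The 19 interaction calls became 7 at 5000 UMIs, 12 at a sum of 10, 5 without Isg15 in the sum, 69 with copied barcodes kept, 3 without cells lacking a Kit UMI, 8 by DESeq2, 63 with no filter, and 22 to 131 with 1 library left out. The cause of these shifts was not tested. With a replicate block the genotype calls were 199 in responding and 1406 in other cells, but same-numbered libraries did not deviate together (correlations of -0.038 and -0.020 across genes), so they share only a number. Of the interferon-stimulated genes 2 were higher and 8 lower with the block.

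The genotype difference of Ranbp2 was -0.068 to 0.41 in responding cells and -0.018 to 0.26 in other cells with 1 library left out, reversing without control replicate 2. The interaction reversed for Hbb-bs (9.76 without Isg15 in the sum, 1.20 without haemoglobin-rich cells, 1.27 without cells lacking a Kit UMI), for Hbb-bt (1.36 without Isg15) and for Blvrb (0.097 without Isg15, 0.080 without cells lacking a Kit UMI). Of 485 alternatives over 29 genes named between cell groups, 474 kept direction and call and 11 kept direction only. Of 311 over 19 genes between genotypes in responding cells, 247 kept both and 60 lost the call; of 304 over 19 interaction genes, 202 kept both and 96 lost the call. The limits on haemoglobin, on Kit and at 50 or more per 10000 were chosen after seeing the data. With 93 responding cells in knockout replicate 2 and 111 in control replicate 2, genes at a few CPM rest on few UMIs there.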
